A study of Danio rerio with 6 samples.

Results

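Myelin is the lipid-rich membrane that oligodendrocytes wrap around axons in the brain and spinal cord and that Schwann cells wrap around axons of peripheral nerves. Its compaction depends on a small set of abundant membrane proteins, and the glia that make it are specified by transcription factors of the Olig and SoxE families. The 8 genes described here were chosen by symbol, with earlier results of these data known, and were all present, among 31452 genes listed. Of these, 5 encode proteins of the sheath (cldnk, mbpa, mpz, plp1a and plp1b) and 3 encode transcription factors of the lineage (olig1, olig2 and sox10). All 8 were above 0 in every library and passed the filter on low values, which 26082 genes passed in all.

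RNA was sequenced from whole zebrafish (Danio rerio) embryos at 4 days post fertilization, when myelination of the first axons is under way in this species. One group had been injected with a splice-blocking morpholino against glut12 (glut12 MO), a sugar transporter gene listed as slc2a12, and the other with a control morpholino (Control MO). Morpholinos are synthetic antisense molecules that act on their target transcript for a limited time and throughout the embryo. Each group has 3 libraries, each from a pool of 10 embryos, and no label tells whether pools of a group had different parents, so the p-values rest on the spread among pools, part of which may be technical.

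The values, called normalised read counts below, are read counts scaled by a library size factor and rounded by the authors. Depths estimated from the values ran from 9490000 to 15170000 reads in glut12 MO libraries and from 7550000 to 11610000 reads in Control MO libraries. Control MO 1, the shallowest library, stood apart: over 15942 genes its log2 values correlated with those of the other 5 libraries at r = 0.926 to 0.961, against 0.974 to 0.992 among those 5, where genes are not independent replicates. The targeted gene, slc2a12 (chromosome 23, Zv9), was at 98, 97 and 90 in glut12 MO libraries, against 160, 145 and 143 in Control MO libraries, but did not pass adjustment over all genes (limma, Benjamini-Hochberg adjusted p = 0.158). Because whole embryos were sequenced, fewer myelinating cells and less of a transcript per cell cannot be told apart.

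None of the 8 genes passed the test between glut12 MO and Control MO embryos. The claudin gene cldnk came closest and was the only one of the 8 whose groups did not overlap, at about 0.69 times its Control MO level. The other sheath genes, mbpa, mpz, plp1a and plp1b, had lower means in glut12 MO embryos by amounts smaller than or close to the spread between pools, and olig2 and sox10 were at about 0.79 times their Control MO levels with overlapping groups. Lower log2 fold changes were found in 7 of the 8, with olig1 as the exception.

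In limma's test, 0 of the 8 genes were lower at an adjusted p under 0.05, beside 0% of all genes tested, and 0 were higher, beside 0.023% of all genes. Voom also called 0 of the 8. At an unadjusted p under 0.05, 2 of the 8 (cldnk and sox10) were lower, beside 6.93% of all genes tested, and 0 were higher, beside 8.99%. Groups did not overlap, with glut12 MO lower, for 1 of the 8, beside 10.2% of all genes, so that the share among the 8 was close to the background. The median log2 fold change of the 8 genes was -0.21, beside 0 for all genes tested, of which 49.5% were negative. The median of the 8 was -0.076 without glut12 MO 1. The count lower at an unadjusted p under 0.05 was 1, cldnk, in 6 of the 16 alternatives, and the share of all genes lower moved as well. That share was 4.31% without glut12 MO 2, 5.12% without Control MO 1, 6.59% without Control MO 2, 3.05% with equal library totals, 2.99% with voom and 5.51% in limma without the trend. Voom here also scales libraries by their totals, so it repeats the scaling to equal totals. Scaling the libraries to equal totals moved the median of all genes by 0.11 on the log2 scale and brought the median of the 8 to -0.098. Such scaling moves all genes by nearly the same amount, so relative to that shift the median of the 8 stays near -0.21 by construction.

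The sheath genes begin with cldnk (ENSDARG00000042357, chromosome 3), which encodes claudin k, a tight junction protein of myelinating glia in zebrafish. Its normalised read counts were 125, 128 and 112 in glut12 MO libraries, against 201, 160 and 174 in Control MO libraries. Every glut12 MO library lay below every Control MO library, the nearest values being 128 in glut12 MO 2 and 160 in Control MO 2. The log2 fold change was -0.54 ± 0.14 (SE), with a 95% interval of -0.86 to -0.23. Its unadjusted limma p was 0.0037 and its adjusted p 0.192, with a range of 0.0872 to 0.551 over 16 alternatives. Of all log2 fold changes, those of low genes included, it lay at percentile 5.77, so a difference of this size was not rare among the genes tested. By unadjusted limma p it ranked 500 of the 26082 genes tested. Its spread within groups, a standard deviation of 0.14 on the log2 scale, was close to the 0.12 that counting error alone would give at an estimated 100.8 to 177.6 reads. Without Control MO 1, where cldnk was highest, the log2 fold change was -0.45.

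Myelin basic protein, which holds the cytoplasmic faces of the membrane together, is encoded by mbpa (ENSDARG00000036186, chromosome 19). Counts of mbpa were 385, 560 and 651 in glut12 MO libraries, against 707, 514 and 639 in Control MO libraries. The groups overlapped, and a single library, glut12 MO 1, lay below the rest. Its log2 fold change of -0.24 ± 0.20 (SE; limma adjusted p = 0.575) became -0.026 without glut12 MO 1. Within groups mbpa varied with a standard deviation of 0.32 on the log2 scale, 5.29 times the value of 0.061 that counting error gives, so its libraries differed by more than counting error.

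Protein zero, an adhesion protein that joins the outer faces of successive wraps and in fish is used in central as well as peripheral myelin, is encoded by mpz (ENSDARG00000038609, chromosome 2). It was at 213, 277 and 314 in glut12 MO libraries, against 273, 346 and 274 in Control MO libraries. The ranges overlapped, with glut12 MO 1 again lowest. The log2 fold change was -0.16 ± 0.17 (SE; limma adjusted p = 0.663), and it was -0.0043 without glut12 MO 1 and -0.047 without Control MO 2, the highest library.

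Proteolipid protein, the main membrane-spanning protein of mammalian central myelin, has a pair of genes in zebrafish. For plp1a (ENSDARG00000057770, chromosome 14) counts were 130, 156 and 169 in glut12 MO libraries, against 146, 188 and 182 in Control MO libraries. For plp1b (ENSDARG00000011929, chromosome 5) they were 190, 195 and 272 in glut12 MO libraries, against 307, 234 and 200 in Control MO libraries. Both genes overlapped between the groups, and glut12 MO 1 was the lowest library for each. Log2 fold changes were -0.18 ± 0.15 for plp1a and -0.17 ± 0.19 for plp1b (SE; limma adjusted p = 0.595 and 0.700). The 2 genes placed Control MO 1 differently: relative to Control MO 2 and 3 it lay 0.34 lower on the log2 scale for plp1a (a difference of -0.34) and 0.50 higher for plp1b. With 1 library left out, the log2 fold change of plp1a ran from -0.29 (without Control MO 1) to -0.074 (without glut12 MO 1) and was -0.11 without Control MO 2. That of plp1b ran from -0.34 (without glut12 MO 3) to -0.0022 (without Control MO 1), with -0.31 without Control MO 3, -0.078 without glut12 MO 1 and -0.096 without glut12 MO 2. The log2 ratio of plp1b to plp1a, which no scaling of a library changes, averaged 0.52 ± 0.18 in glut12 MO libraries and 0.51 ± 0.49 in Control MO libraries (SD, n = 3 per group; exact permutation p = 0.9, two-sided, where 3 against 3 allows no p below 0.1). This ratio is not corrected for transcript length. How reads shared between near-identical copies were counted is not given in the sources used here, so values of duplicated genes carry that uncertainty.

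**Figure D1:**
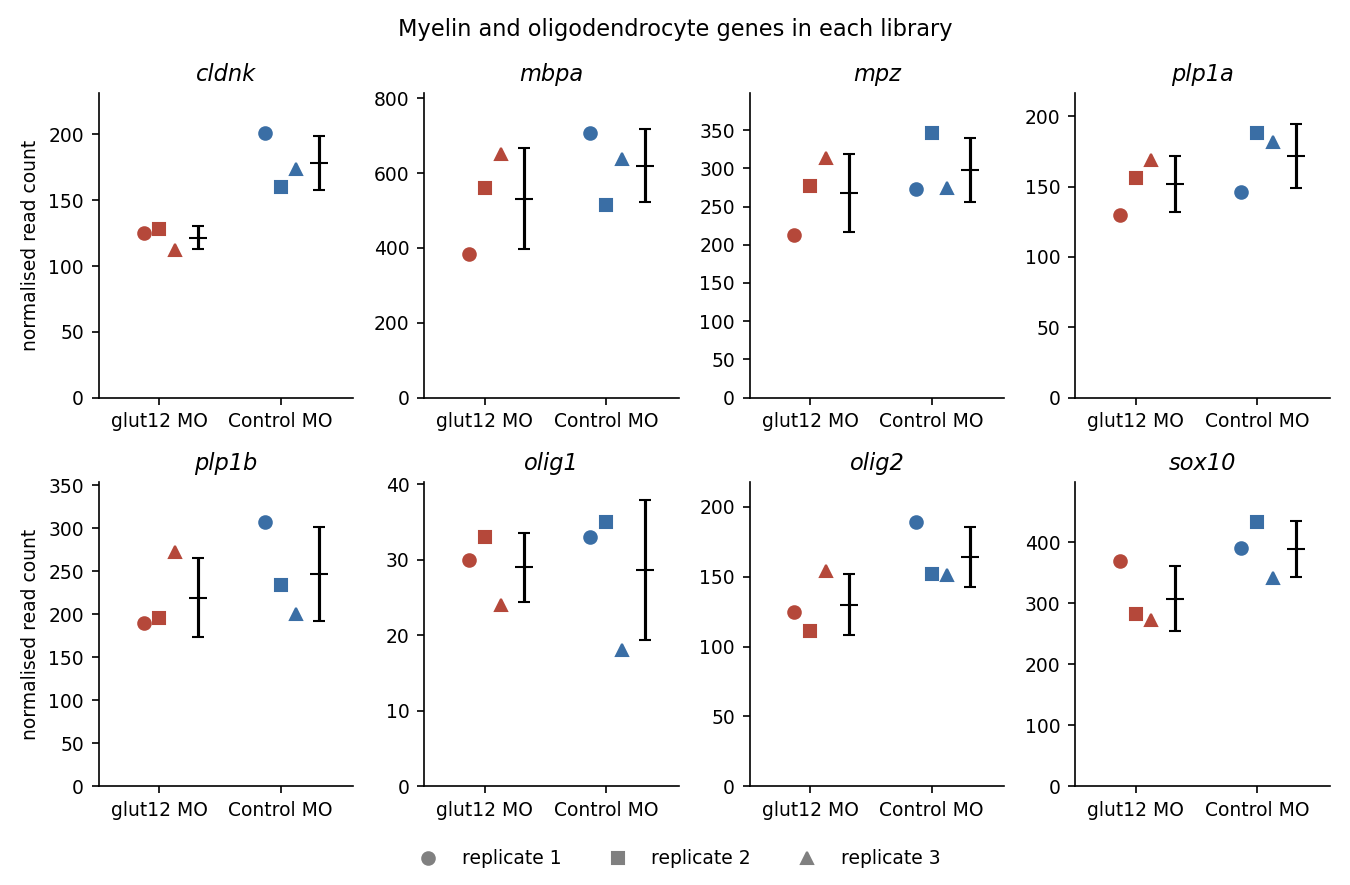
Normalised read counts (vertical axes, from 0) of the 8 genes in the 3 glut12 MO libraries (left, red) and the 3 Control MO libraries (right, blue). Marker shapes give the replicate number, and black bars the mean and SD. Only cldnk, at 112 to 128 in glut12 MO and 160 to 201 in Control MO libraries, shows no overlap.

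The transcription factors include the basic helix-loop-helix genes olig1 and olig2. They lie on chromosome 9, with 1 gene between them in RefSeq's gene table for GRCz12tu. The product of olig2 is required for motor neurons and oligodendrocytes, which arise from the same ventral progenitors of the spinal cord. Counts of olig2 (ENSDARG00000040946) were 125, 111 and 154 in glut12 MO libraries, against 189, 152 and 151 in Control MO libraries. Glut12 MO 3 lay within the Control MO range and the other glut12 MO libraries below it. The log2 fold change of olig2 was -0.34 ± 0.16 (SE; limma adjusted p = 0.352), and it was -0.23 without Control MO 1, where olig2 was highest.

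The product of olig1 acts in maturation and remyelination in mice. Counts of olig1 (ENSDARG00000040948) were 30, 33 and 24 in glut12 MO libraries, against 33, 35 and 18 in Control MO libraries. The highest and the lowest of the 6 values were both Control MO libraries. The log2 fold change was 0.060 ± 0.31 (SE; limma adjusted p = 0.944), with a 95% interval of -0.65 to 0.77. An estimated 16.7 to 45.8 reads per library stood behind olig1, and counting error alone gives a standard deviation of 0.28 on the log2 scale, against 0.40 observed within groups. The direction was negative without Control MO 3 (-0.23) and without glut12 MO 2 (-0.036).

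The SoxE factor gene sox10 (ENSDARG00000077467, chromosome 3) acts in oligodendrocytes and Schwann cells and also in the neural crest, pigment cell precursors and the otic vesicle. Its counts were 369, 282 and 272 in glut12 MO libraries, against 391, 433 and 342 in Control MO libraries. Glut12 MO 1 overlapped with the Control MO libraries and the other glut12 MO libraries lay below them. The log2 fold change was -0.34 ± 0.15 (SE), with a 95% interval of -0.68 to -0.0099. Its unadjusted limma p was 0.045 and its adjusted p 0.309. Scaling libraries to equal totals leaves its value relative to the median of all genes near -0.34 by construction. With equal totals sox10 no longer passed the unadjusted limma threshold of 0.05, and its log2 fold change itself was -0.23. It was -0.48 without glut12 MO 1 and -0.26 without glut12 MO 3 or Control MO 2, with unadjusted limma p of 0.0068, 0.15 and 0.158 in that order. Summed counts of 16 neural crest and pigment cell genes were 11232, 6512 and 7061 in glut12 MO libraries, against 7986, 7795 and 7691 in Control MO libraries, so that glut12 MO 1 was highest of its group in this sum as in sox10. A few pigment genes lead this sum, the largest in glut12 MO libraries 1, 2 and 3 being tyrp1b (2729, 1038 and 1199) and pmela (2651, 1245 and 1386). Others were not highest in glut12 MO 1, such as ltk (179, 211 and 212) and tfap2a (1591, 1526 and 1598). None of the 16 was at 0, and 1 was lower and 1 higher at an unadjusted p under 0.05. Their part in the sox10 values was not tested.

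**Figure D2:**
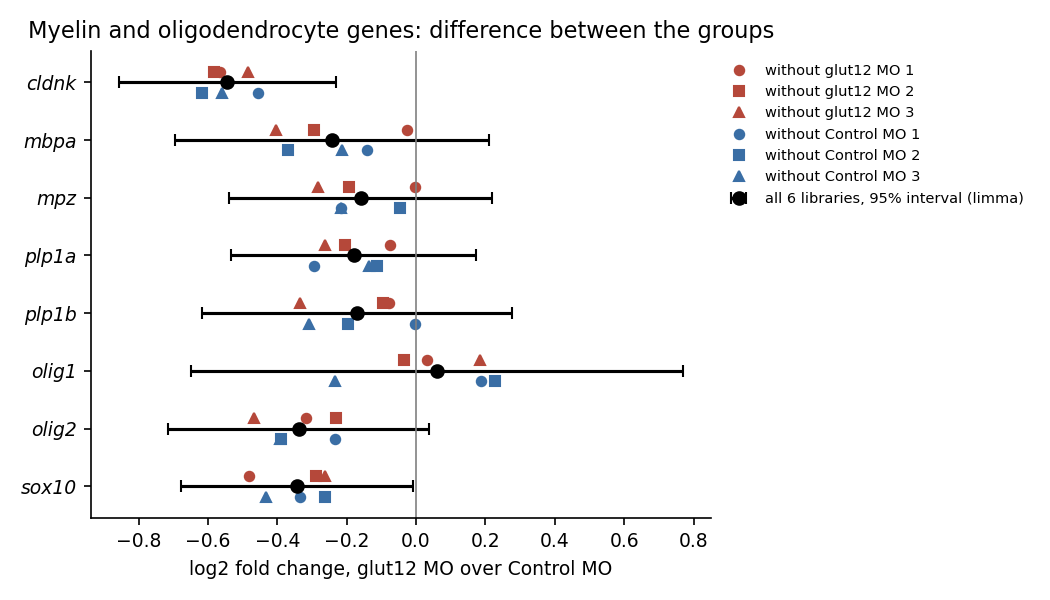
Log2 fold changes of glut12 MO over Control MO (horizontal axis) for the 8 genes. Black points and bars give the limma estimate with all 6 libraries and its 95% interval, and coloured markers the estimate with 1 library left out. Only the intervals of cldnk (-0.86 to -0.23) and sox10 (-0.68 to -0.0099) lie below 0, before any adjustment over all genes.

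The libraries did not order the 8 genes alike. The lowest library was glut12 MO 1 for mbpa, mpz, plp1a and plp1b, glut12 MO 3 for cldnk and sox10, glut12 MO 2 for olig2 and Control MO 3 for olig1. Control MO 1 was the highest library for cldnk, mbpa, plp1b and olig2, and Control MO 2 for mpz, plp1a, olig1 and sox10. Without Control MO 1, 7 of the 8 log2 fold changes were still negative, with a median of -0.23. The average of the standardised log2 values of the 7 genes with a mean of at least 50 (all but olig1) was -0.999, -0.61 and 0.063 in glut12 MO libraries 1, 2 and 3, against 0.74, 0.57 and 0.23 in Control MO libraries 1, 2 and 3. The genes whose log2 values over the 6 libraries were most like this average were pigv, CD68, ifrd1, zfyve27 and srsf1b (Pearson's r of 0.997, 0.996, 0.993, 0.990 and 0.986). With 6 libraries such likeness is common, and 267 of 15819 genes had an r over 0.9.

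Other genes of the myelin sheath, its glia and neighbouring cells were described from 10 lists, also chosen with earlier results of these data known. None of their genes passed adjustment over all genes, with or without Control MO 1. Equal library totals raise each list's median by about the shift of all genes given above, so that those of neuronal and motor neuron genes become positive (0.088 and 0.024) and that of astroglial genes stays negative (-0.089). Among 18 further genes of the sheath and glial membrane, log2 fold changes were negative for 9 and positive for 9 (median 0.0042), and Control MO 1 lay below Control MO 2 and 3 (median difference -0.12). At an unadjusted p under 0.05, 6 were lower and 3 higher, and 4 and 3 without Control MO 1. All counts at an unadjusted p given for these lists stand beside 6.93% lower and 8.99% higher among all genes, and 5.12% and 7.93% without Control MO 1, and with equal library totals the shares of all genes were 3.05% and 14.5%. None of the directions given for single genes of this list turned with equal library totals. The myelin and lymphocyte proteolipid gene mal was at 94, 67 and 84 in glut12 MO libraries, against 157, 125 and 152 in Control MO libraries. Its log2 fold change was -0.82 ± 0.17 (SE; limma adjusted p = 0.158). The gene cldn11b, of the claudin 11 family that seals mouse oligodendrocyte myelin, was at 99, 107 and 100 in glut12 MO libraries, against 145, 173 and 163 in Control MO libraries (log2 fold change -0.64 ± 0.13, SE; limma adjusted p = 0.158). The phosphodiesterase gene enpp6, which marks newly forming oligodendrocytes in mice, was at 91, 75 and 57 in glut12 MO libraries, against 114, 124 and 112 in Control MO libraries (log2 fold change -0.67 ± 0.19, SE; limma adjusted p = 0.206). These 3 were picked by a low unadjusted p, and their groups did not overlap. Without Control MO 1 their log2 fold changes were -0.76, -0.71 and -0.68.

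The second myelin basic protein gene, mbpb, and pmp22b and cd82a were the other 3 lower ones, named after their values were seen. Counts of mbpb were 1083, 1018 and 1005 in glut12 MO libraries, against 1225, 1123 and 1175 in Control MO libraries. Its groups did not overlap with the deposited scaling but did with equal library totals, as did those of pmp22b and cd82a. The log2 fold change of mbpb was -0.18 ± 0.078 (SE; limma adjusted p = 0.311). The 3 higher ones were prx and, named after their values were seen, cldn19 and gpr37l1b. With equal library totals the groups of cd9a, mag and both cnp entries also did not overlap, with glut12 MO higher. The periaxin gene prx, a Schwann cell gene in mice that is also used in the lens, was at 2053, 2044 and 1897 in glut12 MO libraries, against 1402, 1754 and 1597 in Control MO libraries (log2 fold change 0.34 ± 0.098, SE; limma adjusted p = 0.206).

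**Figure D3:**
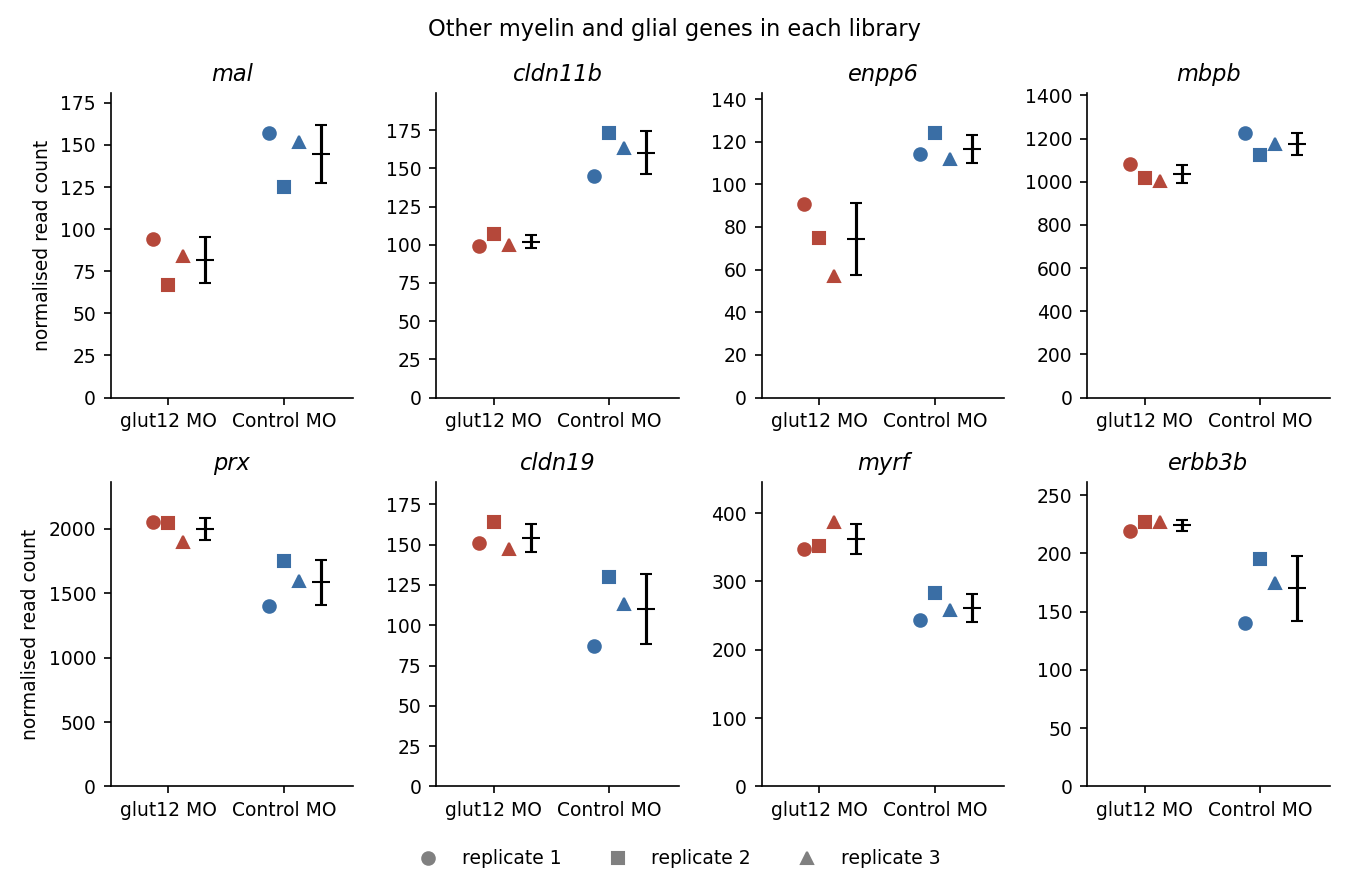
Normalised read counts (vertical axes, from 0) of 8 further myelin and glial genes in glut12 MO libraries (left, red) and Control MO libraries (right, blue), with mean and SD as black bars. The 8 were picked by a low unadjusted p or after their values were seen, so that none shows overlap of the groups. Of them mal, cldn11b, enpp6 and mbpb were lower and prx, cldn19, myrf and erbb3b higher in glut12 MO embryos, and mbpb overlaps with equal library totals. With the deposited scaling, groups did not overlap for 6 lower and 3 higher of the 18 sheath genes. The counts were 4 and 2 of the 20 lineage factor genes and 3 and 5 of the 18 signalling genes. The shares of all genes tested were 10.2% lower and 11.6% higher. None passed adjustment over all genes. With equal library totals, of the lower ones in these lists only mal, cldn11b, enpp6 and olig4 stayed without overlap. The higher ones stayed so, and cd9a, mag, both cnp entries, zeb2a and myt1b joined them. Shares of all genes were not computed for that scaling.

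Among 20 further lineage factor genes, negative log2 fold changes numbered 13 and positive ones 7, their median was -0.13 (-0.047 without Control MO 1), and 0 were lower and 2 higher at an unadjusted p under 0.05. Of the higher 2, myrf drives myelin genes in mouse oligodendrocytes. It was at 348, 352 and 387 in glut12 MO libraries, against 243, 283 and 258 in Control MO libraries. Every glut12 MO library lay above every Control MO library, opposite to cldnk, with a log2 fold change of 0.47 ± 0.10 (SE; limma adjusted p = 0.164) and of 0.42 without Control MO 1. The other was zeb2b, which was at 251, 280 and 333 in glut12 MO libraries, against 39, 154 and 170 in Control MO libraries. Its log2 fold change of 1.49 was 0.82 without Control MO 1. The lowest unadjusted p among the lower ones was that of pou3f2a, at 173, 148 and 153 in glut12 MO libraries, against 187, 198 and 185 in Control MO libraries.

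Genes of the list for glial signalling lay higher in glut12 MO embryos more often than lower. Most of those with the largest differences were low in Control MO 1. Because whole embryos were sequenced, their values cannot be credited to glia alone. The log2 fold change was positive for 12 of 18 genes. Its median was 0.23, and 0.14 without Control MO 1, and 5 were higher at an unadjusted p under 0.05 (4 without Control MO 1). The neuregulin receptor gene erbb3b, needed by zebrafish Schwann cells, was at 219, 227 and 227 in glut12 MO libraries, against 140, 195 and 175 in Control MO libraries. Its log2 fold change was 0.41 ± 0.14 (SE; limma adjusted p = 0.246) and 0.28 without Control MO 1. The progenitor proteoglycan gene cspg4 was at 187, 240 and 236 in glut12 MO libraries, against 72, 102 and 179 in Control MO libraries. The gene lingo1a was at 78, 108 and 117 in glut12 MO libraries, against 12, 46 and 57 in Control MO libraries, a log2 fold change of 1.61 that was 0.95 without Control MO 1.

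Of 11 genes of the node of Ranvier and its neighbouring junctions, where axon and glia meet, 8 had positive log2 fold changes, and the same 8 were lowest in Control MO 1. Their median was 0.61, and 0.32 without Control MO 1, in which the median gene lay 0.90 below the other Control MO libraries (a difference of -0.90). At an unadjusted p under 0.05, 6 of the 11 were higher and 0 lower, and again 6 and 0 without Control MO 1. The shares of all genes higher were 8.99% and 7.93%. The neurofascin gene nfasca was at 154, 205 and 228 in glut12 MO libraries, against 23, 84 and 133 in Control MO libraries. The paranodal gene CNTNAP1 was at 40, 53 and 54 in glut12 MO libraries, against 14, 26 and 28 in Control MO libraries. The sodium channel gene scn8aa, whose mammalian counterpart is placed at mature nodes, was at 766, 943 and 1016 in glut12 MO libraries, against 338, 575 and 722 in Control MO libraries. These 3 were picked by a low unadjusted p, and their groups did not overlap. In the whole list, groups did not overlap with glut12 MO higher for 8 of the 11, beside 11.6% of all genes tested. With glut12 MO lower the count was 0, beside 10.2%. Leaving out a library cannot make separate groups overlap. The log2 fold changes of nfasca, CNTNAP1 and scn8aa were 1.58, 1.12 and 0.79 with all libraries and 0.86, 0.82 and 0.48 without Control MO 1. How far the deviation of Control MO 1 sets these values beyond that was not tested. Because whole embryos were sequenced, values of this list cannot be credited to nodes and junctions alone. Of 5 myelin lipid genes, 1 was negative and 4 positive with a median of 0.21. At an unadjusted p under 0.05, 2 were higher, and 0 without Control MO 1. These were aspa, at 33, 35 and 41 in glut12 MO libraries, against 3, 15 and 30 in Control MO libraries, and the ceramide synthase gene cers2b, at 454, 417 and 418 in glut12 MO libraries, against 357, 347 and 394 in Control MO libraries. The gene fa2h, which hydroxylates myelin fatty acids, overlapped between the groups (though not with equal library totals) and was at 564, 669 and 805 in glut12 MO libraries, against 605, 558 and 578 in Control MO libraries.

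**Figure D4:**
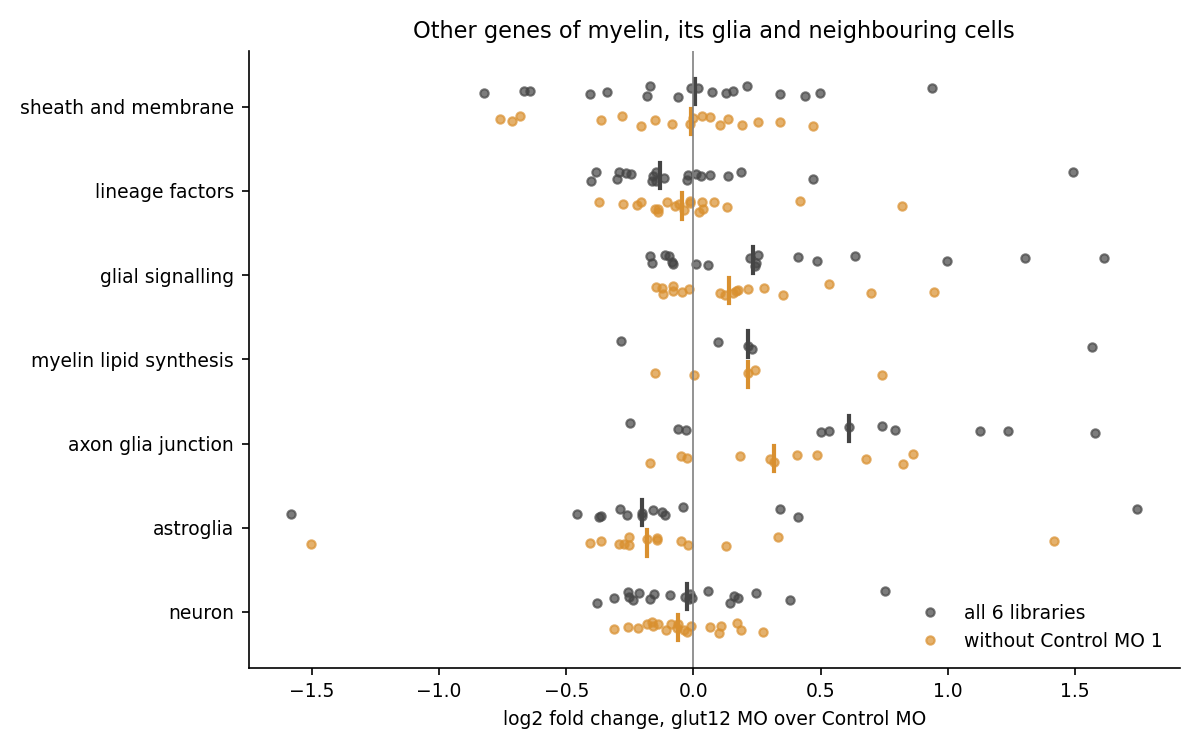
Log2 fold changes of glut12 MO over Control MO (horizontal axis) for the genes of 7 lists, each point 1 gene and each vertical bar the list's median. Grey shows all 6 libraries and orange the 5 without Control MO 1. The median of the axon and glia junction list is 0.61 with all libraries and 0.32 without Control MO 1, while that of the sheath list lies at 0.0042 and -0.0089.

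Markers of other cells of the nervous system are given beside the sheath genes, since a whole embryo holds them all. Of 15 astroglial genes, 12 were negative with a median of -0.20, and 6 were lower and 2 higher at an unadjusted p under 0.05 (median -0.18, 5 and 1 without Control MO 1). Their summed counts lay between 23928 and 24774 in glut12 MO libraries, against 27939 to 29535 in Control MO libraries, without overlap. A few abundant genes lead this sum, the largest being slc1a2b, at 7009, 6901 and 7353 in glut12 MO libraries, against 8829, 8640 and 8494 in Control MO libraries. The intermediate filament gene gfap was at 2461, 2814 and 2601 in glut12 MO libraries, against 3247, 3452 and 3493 in Control MO libraries. The 2 higher ones were slc1a2a, with overlapping groups in the deposited scaling, and aqp4. Counts of aqp4 were low, at 8, 21 and 19 in glut12 MO libraries, against 2, 4 and 6 in Control MO libraries. Of 20 neuronal genes, 13 were negative with a median of -0.025, and 5 were lower and 1 higher at an unadjusted p under 0.05. Without Control MO 1 the neuronal median was -0.063, with 2 lower and 2 higher. Groups did not overlap for 5 lower and 2 higher of the 20, beside 10.2% and 11.6% of all genes. The 2 higher ones, named after their values were seen, were elavl3 and elavl4, both lowest in Control MO 1. Counts of elavl3 were 2310, 2531 and 2416 in glut12 MO libraries, against 737, 1897 and 2106 in Control MO libraries. Summed counts of the 20 neuronal genes were 33352 to 35292 in glut12 MO libraries, against 34742 to 35961 in Control MO libraries, with overlap. The summed counts of the 8 myelin and oligodendrocyte genes were 1567, 1742 and 1968 in glut12 MO libraries, against 2247, 2062 and 1980 in Control MO libraries. That sum is led by mbpa, and its groups, which just do not overlap with the deposited scaling, overlap with equal library totals, where it was 1603, 1842 and 2052 in glut12 MO libraries, against 2100, 1980 and 1967 in Control MO libraries. The astroglial groups did not overlap with equal totals either. Motor neuron genes, which share progenitors with the oligodendrocyte lineage, numbered 9, of which 6 were negative with a median of -0.089 (-0.13 without Control MO 1). Among them 1 was lower and 0 higher at an unadjusted p under 0.05. The same gene was the only 1 of the 9 whose groups did not overlap, a share close to the 10.2% lower among all genes. That gene, isl1, was at 742, 646 and 652 in glut12 MO libraries, against 896, 803 and 775 in Control MO libraries. The 3 positive ones were isl2b, mnx2b and the lhx3 gene (log2 fold changes 0.025, 0.081 and 0.25). The 9 otic vesicle genes, from another site of sox10 expression, had a median of 0.095 with 3 negative. None of the astroglial, neuronal, motor neuron or otic genes found was at 0 throughout, and the part of these cell types in the values of the 8 genes was not tested.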

How the data were processed

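Total RNA of whole embryos was sequenced on Illumina libraries, 6 in all and 3 per group, grouped by sample title. The deposited values are a score: read counts per gene divided by a size factor and rounded by the authors, a reading taken from the values and from a closing size factor line that holds no number. Per the submitters' processing notes the genome build was Zv9. Which aligner and counter were used, and whether strand was, is not given in the sources used here. That last line names no gene and was left out. Because the values are no longer raw counts, no count model was used.

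Genes that reached 1 in 3 or more libraries were tested on log2(value + 1) with limma 3.58.1 in R 4.3.3, with a mean-variance trend, group as the single term, and Benjamini-Hochberg adjustment over all 26082 genes at 0.05. Fold changes are glut12 MO over Control MO on the log2(value + 1) scale, which understates changes of low genes. The fit was tested on simulated data. The worth of 1 read in each library, and thus depth, was estimated from which low whole numbers were unused or used doubly. Counting error covers reads only and assumes independent reads.

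The 8 genes and the lists were chosen with earlier results of these data known. Of 160 other list entries in 10 lists, 139 were found, 3 of them through the current gene name table, and some symbols have a second entry. Genes named are the 8, slc2a12, from each list up to 4 with a mean of at least 10 and the lowest unadjusted p, of which those that bear on the 8 are given, and the 5 most alike in pattern. Alternatives were other scalings, filters, a pseudocount of 0.1, voom, limma without trend, robust or with library weights, a block for the replicate number, and leaving out each library. Lists without Control MO 1 were added after seeing the data. No sequence is printed.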

Additional observations from a re-analysis of the deposited data

How the results depend on the processing

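None of the 8 genes was called in any of 16 alternatives, and 7 kept a negative log2 fold change in all of them. The other filters, limma without trend or robust, and the replicate block leave each log2 fold change as it was. The direction could not turn in those. With 1 library left out, log2 fold changes ran from -0.62 to -0.45 for cldnk, -0.48 to -0.26 for sox10, -0.47 to -0.23 for olig2, -0.40 to -0.026 for mbpa, -0.28 to -0.0043 for mpz, -0.29 to -0.074 for plp1a, -0.34 to -0.0022 for plp1b and -0.31 to -0.076 for the median of the 8. That of olig1 ran from -0.23 (without Control MO 3) to 0.23 (without Control MO 2), and was -0.036 without glut12 MO 2. Over all genes, limma called 6 higher and 0 lower. Higher and lower counts were 10 and 1 with equal library totals, 11 and 3 with a mean of at least 10, 24 and 6 without the trend, 32 and 19 with a robust step, and 217 and 112 with library weights. They were 2 and 0 with a pseudocount of 0.1, 6 and 1 with no filter, and 1 to 4 and 0 to 2 with 1 library left out. The difference in the log2 ratio of plp1b to plp1a (0.010) ran from -0.17 to 0.29 with 1 library left out. With the replicate number as a block, counts were 2 higher and 0 lower. The labels do not say that the numbers pair samples, deviations of same-numbered libraries correlated at 0.10, -0.059 and 0.12, and 3 of 6 libraries correlated best with their own number. For olig1, counting error alone gives a standard deviation of 0.28 on the log2 scale, against 0.40 observed within groups.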
